A study of Mus musculus with 4 samples.

Results

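The collagen genes of mouse skin were compared between wild-type (WT) libraries and libraries from mice without Itch. The members were all genes of the count files whose whole symbol is Col, a number, the letter a and a number, which gave 44 of 39179 genes. By the usual grouping of the protein family, 11 of these encode fibrillar chains, 9 basement membrane chains, 9 fibril-associated chains, 4 transmembrane chains and 6 beaded filament (type VI) chains, and 5 encode other network or unclassed chains. Reads were counted per gene in 4 RNA sequencing libraries, 2 of WT skin and 2 of lesional Itch-/- skin (Itch KO below), all from C57BL/6 mice. Itch is a ubiquitin ligase, and the series set WT skin beside the lesional skin of mice that lack it. All 4 samples, the WT ones too, carry the phenotype label inflammation, and neither age nor sex is stated. Nothing in the labels ties the 2 libraries of a group to different animals, so p-values cover only the spread between these libraries, which may be technical. A lesion was sampled in the knockouts alone, so genotype and lesion cannot be told apart.

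Collagens are secreted or membrane proteins in which chains wind around each other in a rope-like helix, and the helix needs glycine at the start of each residue triplet (Gly-X-Y). Fibroblasts of the dermis secrete the fibrillar chains, which form the tension-bearing fibres of skin, while fibril-associated chains coat those fibres. Type IV chains form the sheet under the epidermis and around vessels, type VII forms anchoring fibrils below that sheet, and the transmembrane type XVII holds basal keratinocytes to it as part of the hemidesmosome. Before and after secretion, chains are hydroxylated, folded by chaperones and trimmed by proteinases.

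The repeat that defines the family was read from the coding sequence of each member's principal transcript (GENCODE vM21), and it set the fibrillar class apart in structure. All 44 coding sequences could be read, and runs of at least 3 consecutive triplets opening with a glycine codon (GGN) were counted. In the 11 fibrillar genes the longest run had a median of 338 triplets (216 to 344), with a median of 3 runs per gene. The 9 basement membrane genes had a median longest run of 42 triplets (30 to 75) and a median of 23 runs, that is, a repeat broken many times. The longest run had a median of 57 triplets in the fibril-associated, 43.5 in the transmembrane and 45 in the beaded filament class. To show the repeat in a chain of each kind that the results turn on, the first 45 bases of the longest run are given 5′ to 3′, with the glycine codons in capitals.
Col1a1: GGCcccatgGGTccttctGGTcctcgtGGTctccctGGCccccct
Col4a1: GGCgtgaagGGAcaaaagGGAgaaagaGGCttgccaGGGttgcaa
Col17a1: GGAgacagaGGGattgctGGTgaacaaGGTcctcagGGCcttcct
Col6a5: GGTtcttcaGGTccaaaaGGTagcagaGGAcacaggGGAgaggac
Col1a1 carried this repeat unbroken for 338 triplets, Col4a1 for at most 40, Col17a1 for at most 55 and Col6a5 for at most 37.

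The label check and the composition of the libraries were as follows. Itch mRNA stood at 96.5 and 103 CPM (counts scaled by TMM to library size) in WT replicates 1 and 2 and at 11.7 in both knockouts. Reads on genes numbered between 15144957 and 16008351 per library. Across genes, log2(CPM + 1) of the knockouts correlated at r = 0.983 and that of the WT libraries at r = 0.923. Xist was at 1054 and 630.3 CPM in WT and under 1 CPM in the knockouts (0.946 and 0.891), while 4 Y-linked genes summed to 0.266 and 0.315 CPM in the WT libraries and 176.1 and 153.3 CPM in the Itch KO libraries. Sex and genotype therefore cannot be told apart for any gene here. Skeletal muscle markers (8 genes) summed to 15600 CPM in WT replicate 1, 2485 in WT replicate 2 and 1235 and 1032 in the knockouts. Both knockouts lay below both WT libraries for 7 of these 8 markers, beside 30% of all tested genes. Acta1, the most abundant of them, was at 4117 CPM in WT replicate 1, 723.4 in WT replicate 2 and 409.3 and 352.8 in the knockouts. Hair shaft markers (8 of 9 listed genes found, led by Krt33a) summed to 11.3 CPM in WT replicate 1, 717.9 in WT replicate 2 and 1654 and 1266 in the knockouts. WT replicate 1 thus stands apart from the other 3 libraries in both lists. Results without it are given for part of the genes only, and others moved too. The log2 fold change of Col8a2 went from -1.46 to -0.82 without it, and that of Col7a1 from 0.76 to 1.02.

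As a family, collagen mRNA was higher in both Itch KO libraries than in both WT libraries, and the fibrillar genes made up most of that difference. Summed over the class, fibrillar genes had 1200 and 2611 CPM in WT libraries against 12347 and 11358 CPM in the knockouts, and the whole family 4481 and 5347 CPM against 16611 and 15730 CPM. The 44 members took 0.437% of gene reads in WT replicate 1 (exact 95% binomial interval 0.433 to 0.440) and 0.560% in WT replicate 2 (0.556 to 0.564). In the knockouts they took 1.64% (1.64 to 1.65) and 1.56% (1.55 to 1.56). The intervals cover counting error only and are far narrower than the distance between the WT libraries. The knockout mean of 1.60% ± 0.0627 (SD, n = 2) was 3.21 times the WT mean of 0.498% ± 0.0872 (SD, n = 2), with an exact permutation p = 0.333 (two-sided), the smallest that 2 against 2 libraries can give. With the listed muscle and hair shaft markers and the mitochondrial genes taken out of the denominator, the shares were 0.454% and 0.570% in WT and 1.67% and 1.57% in the knockouts. Other muscle and hair genes stayed in it. In bulk skin, more cells of a type and more RNA per cell cannot be told apart, nor can fewer cells and less RNA per cell.

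Of the 44 members, 39 had enough reads to be tested, and 0 of these passed edgeR's quasi-likelihood F test after Benjamini-Hochberg adjustment over all 16651 tested genes. That test called 1 gene in all (0.00601%), the Y-linked Eif2s3y. At an unadjusted p under 0.05, 19 of 39 members were higher (12% of all tested genes were) and 4 were lower, Col17a1, Col4a5, Col4a6 and Col8a2 (10.9% of all tested genes were). Both knockouts lay above both WT libraries for 23 of 39 members, beside 31.2% of all tested genes, and below both for 7, beside 30% of them. Col6a4 is among the 19 and the 23, but it met the read filter only through the knockouts. Col25a1 is among the 23, and it met the filter only with the help of the knockouts. The median log2 fold change of the 39 members was 0.87, beside 0.01 over all tested genes. DESeq2 on the same counts called 15 members higher (7.83% of all tested genes) and 4 lower (6.16%) at an adjusted p under 0.05.

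The count of calls rested on the WT libraries. With WT replicate 1 left out, edgeR called 14 members at an adjusted p under 0.05, 12 higher (5.52% of all genes tested in that fit) and 2 lower (2.17%). With WT replicate 2 left out it called 22 members, 18 higher (15.3%) and 4 lower (15.3%). Those fits take the spread from the 2 knockouts and assume that the lone WT library varies as they do, whereas the 2 WT libraries differed far more than the knockouts. Without either knockout, 0 members were called.

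**Figure D1:**
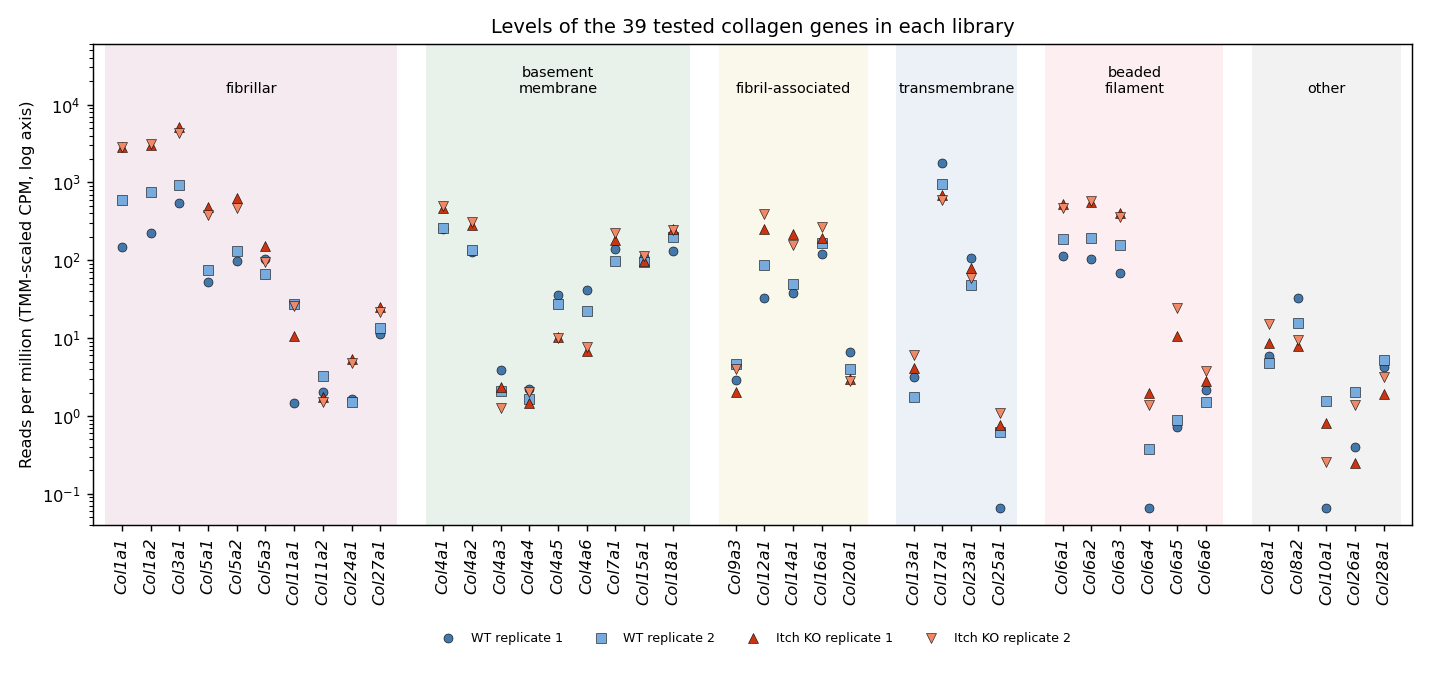
Level of each of the 39 tested collagen genes (x axis, by class) in each of the 4 libraries, in TMM-scaled CPM on a log axis. Circles and squares are WT replicates 1 and 2, and upward and downward triangles are Itch KO replicates 1 and 2. Col1a1, Col1a2 and Col3a1 in the knockouts lie between 2827 and 5163 CPM, above both WT libraries, while Col17a1, Col4a5 and Col4a6 lie below both.

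The fibrillar genes of the dermis showed some of the greatest distances between the groups. Both knockouts exceeded both WT libraries for 7 of the 10 tested fibrillar genes (31.2% over all tested genes), and the same 7 were higher at an unadjusted p under 0.05 (12%). The class median log2 fold change was 1.97 (1.89 without WT replicate 1 and 2.77 without WT replicate 2). Col1a1, which encodes the alpha 1 chain of type I collagen, the main collagen of the dermis, was at 148.5 and 601.3 CPM (WT) and 2827 and 2885 CPM (Itch KO). The groups do not overlap, and the WT libraries differed by 4.05-fold where the knockouts differed by 1.02-fold. Its log2 fold change was 2.93 ± 0.74 (SE), with an adjusted p = 0.144 by edgeR. Its partner Col1a2, the alpha 2 chain, was at 227 and 756.5 CPM in WT compared with 3047 and 3102 CPM in the knockouts, a log2 fold change of 2.64 ± 0.64. For both type I genes the fold depends on which WT library is taken, since the knockout mean of Col1a1 was 19.2 times WT replicate 1 and 4.75 times WT replicate 2. DESeq2 gave both an adjusted p under 0.05 (1.14e-04 for Col1a1 and 1.21e-04 for Col1a2).

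Col3a1 and the type V genes, whose products co-assemble with type I in dermal fibres, separated the groups with less spread. Col3a1 (ENSMUSG00000026043, chr1:45311538-45349706, plus strand, GRCm38) was at 552.4 and 935.9 CPM in WT, against 5163 and 4376 CPM in the knockouts, a log2 fold change of 2.68 ± 0.35 (edgeR adjusted p = 0.0697). Col5a1, which encodes a chain known to start and limit the growth of type I fibrils, was at 52.1 and 74.7 CPM in the WT libraries and 486 and 379.6 CPM in the Itch KO libraries. This was the smallest adjusted p of the family by edgeR, 0.0558, with a log2 fold change of 2.77 ± 0.27. Col5a2, the second chain of the same molecule, was at 98.7 and 131.1 CPM (WT) and 627.3 and 467.5 CPM (Itch KO), a log2 fold change of 2.25 ± 0.26. All 3 had both knockouts well above the WT range. Without WT replicate 1 the log2 fold changes were 2.345 for Col3a1, 2.53 for Col5a1 and 2.06 for Col5a2. Without WT replicate 2 they were 3.11, 3.06 and 2.48.

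Not all fibrillar genes were far apart between the groups. Col5a3, the remaining type V chain, was at 104.8 and 66.1 CPM in WT compared with 153.1 and 94.8 CPM in the knockouts, so the groups overlap. The low-level Col24a1 was at 1.67 and 1.51 CPM in WT, against 5.43 and 4.84 CPM in the knockouts, and Col27a1 at 11.3 and 13.4 CPM in the WT libraries and 25.4 and 21.8 CPM in the Itch KO libraries. These last 2 encode chains with a shorter unbroken Gly-X-Y run than the other fibrillar chains, 216 and 217 triplets. Col11a1, a chain best known from cartilage, was at 1.47 CPM in WT replicate 1, 27.2 in WT replicate 2 and 10.5 and 25.9 in the knockouts, and its log2 fold change of 0.34 ± 1.33 turned to -0.58 without WT replicate 1. Col11a2 was at 2.06 and 3.28 CPM (WT) and 1.77 and 1.53 CPM (Itch KO), the single fibrillar gene with both knockouts below both WT libraries. Col2a1, the main cartilage collagen, had 3, 7, 6 and 6 counts and was not tested.

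**Figure D2:**
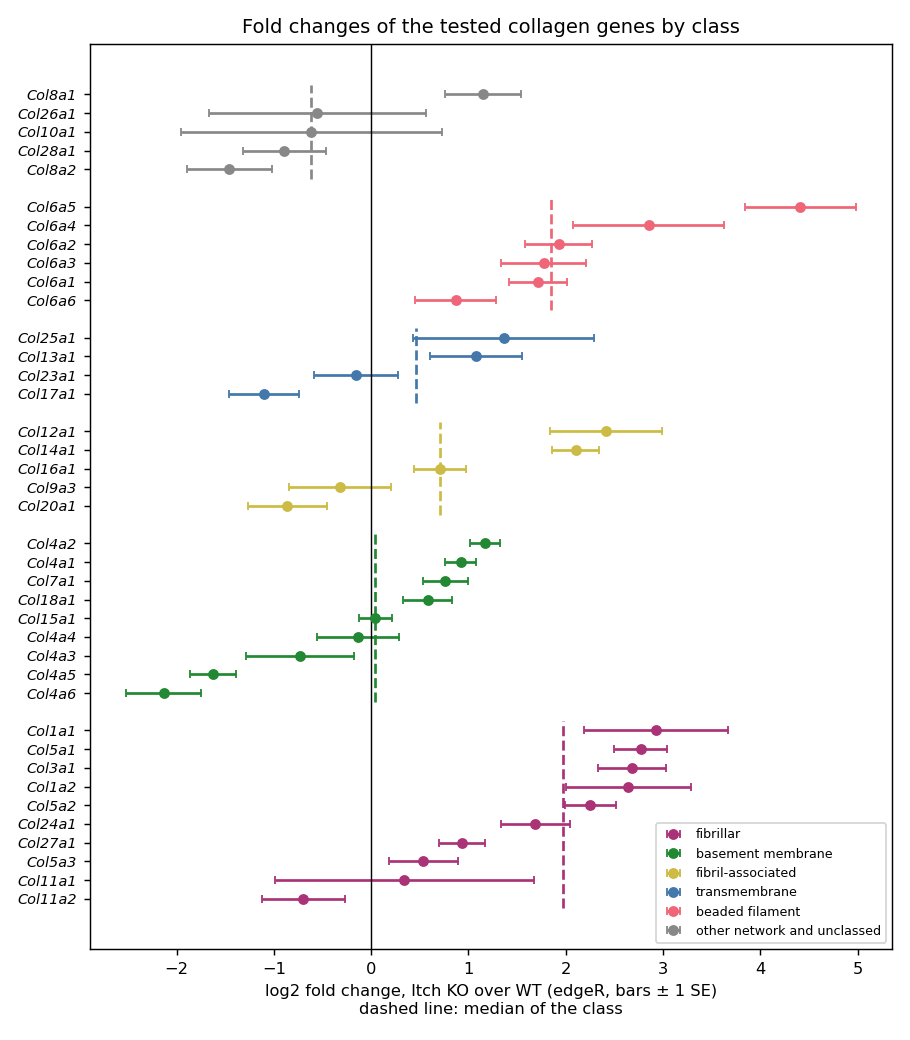
Fold change of each tested collagen gene (y axis, ordered within its class) as log2 of Itch KO over WT from edgeR (x axis), with bars of ± 1 SE and a dashed line at the class median. The fibrillar median lies at 1.97 and the beaded filament median at 1.85, while the basement membrane median of 0.04 sits between genes as far apart as Col4a2 at 1.17 and Col4a6 at -2.13.

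The beaded filament chains of type VI collagen, which form fine networks around cells and between fibres, were higher in both knockouts for all 6 genes of the class, beside 31.2% of all tested genes. Their median log2 fold change was 1.85, and 5 of 6 were higher at an unadjusted p under 0.05, beside 12% of all tested genes. Col6a4 is in both counts, but it met the read filter only through the knockouts, so its place there followed from the filter. Col6a1 was at 115.3 and 190.4 CPM in WT compared with 526.8 and 475.1 CPM in the knockouts, a log2 fold change of 1.71 ± 0.30. Col6a2 was at 105.3 and 196 CPM in WT, against 564.6 and 580.3 CPM in the knockouts (1.93 ± 0.35). Col6a3 was at 67.7 and 156 CPM in the WT libraries and 399.5 and 364.6 CPM in the Itch KO libraries (1.77 ± 0.44). These 3 chains of the standard type VI molecule thus had log2 fold changes within an SE of each other, and the ratio of Col6a1 to Col6a3 per kilobase of transcript was 3.74 and 2.68 in WT and 2.90 and 2.86 in the knockouts.

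Col6a5, which encodes an alternative type VI chain, had the highest log2 fold change of the 39 tested members, at a low level. It was at 0.732 and 0.883 CPM (WT) and 10.5 and 24.2 CPM (Itch KO), 4.41 ± 0.57 on the log2 scale (edgeR adjusted p = 0.0697). Both knockouts stood far above both WT libraries, though they differed from each other by more than 2-fold. Its chromosome 9 neighbour Col6a4 was at 0.0666 and 0.378 CPM in WT compared with 1.96 and 1.40 CPM in the knockouts, with WT replicate 1 under the level that 3 counts give (0.200 CPM). Col6a6, on the other side of Col6a5, was at 2.13 and 1.51 CPM in WT, against 2.84 and 3.82 CPM in the knockouts, a log2 fold change of 0.87 ± 0.42. The log2 fold change of Col6a5 was 4.28 without WT replicate 1 and 4.56 without WT replicate 2.

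Basement membrane chains went in both directions, and the type IV genes split by gene pair. The 9 genes had a median log2 fold change of 0.04, which was -0.06 without WT replicate 2, -0.05 without Itch KO replicate 2 and 0.58 without X and Y genes, a fit that leaves out 2 of the 9. Mouse type IV genes sit head to head in pairs that are read outwards from a shared start region. Col4a1 and Col4a2 on chromosome 8, the chains of the ubiquitous type IV network, overlap by 22 bases at their starts. Col4a4 and Col4a3 on chromosome 1 start 72 bases apart, and Col4a6 and Col4a5 on the X chromosome start 1309 bases apart.

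Both genes of the chromosome 8 pair were higher in the knockouts. Col4a1 was at 249.4 and 262.1 CPM in the WT libraries and 469.5 and 497.7 CPM in the Itch KO libraries, a log2 fold change of 0.92 ± 0.16 (edgeR adjusted p = 0.0877). Col4a2 was at 126.5 and 135.1 CPM (WT) and 280.8 and 306.9 CPM (Itch KO), 1.17 ± 0.15 (edgeR adjusted p = 0.0697). The WT libraries agreed closely for this pair, unlike for the type I genes, and the WT and knockout ranges lie far apart. Per kilobase of transcript, Col4a1 was 1.92 and 1.89 times Col4a2 in WT and 1.63 and 1.58 times in the knockouts, so the ratio ranges of the groups do not overlap.

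Both genes of the X-linked pair, whose chains form a second network known from the epidermal basement membrane, were lower in the knockouts. Col4a5 was at 36.0 and 27.4 CPM in WT compared with 10.5 and 10.1 CPM in the knockouts, a log2 fold change of -1.63 ± 0.24 (edgeR adjusted p = 0.0766). Col4a6 was at 42.0 and 22.3 CPM in WT, against 6.94 and 7.70 CPM in the knockouts, -2.13 ± 0.38 (edgeR adjusted p = 0.0938). Without WT replicate 1 the log2 fold change was -1.42 for Col4a5 and -1.61 for Col4a6. Without WT replicate 2 it was -1.80 and -2.515. The level of Col4a1 per kilobase was 6.85 and 9.44 times that of Col4a5 in WT and 44.3 and 48.9 times in the knockouts. Both genes lie on the X chromosome, for which the WT and knockout libraries differ in sex markers, and the part of sex in these values was not tested. The chromosome 1 pair was low, with Col4a3 at 3.93 and 2.08 CPM in the WT libraries and 2.33 and 1.27 CPM in the Itch KO libraries and Col4a4 between 1.45 and 2.20 CPM in all 4 libraries. For Col4a3, 5.65% of exon bases are shared with a transcript on the opposite strand, so its counts are uncertain.

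**Figure D3:**
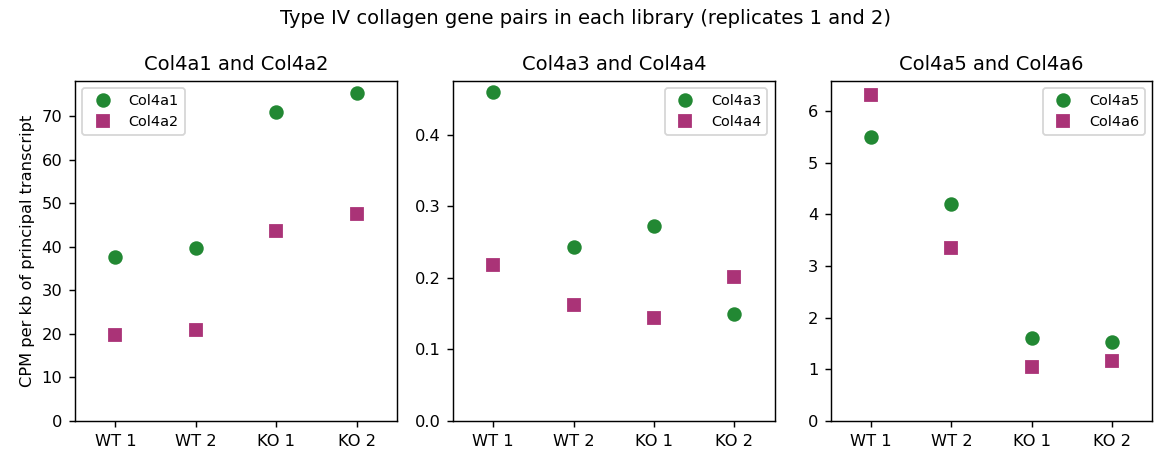
Level of the 6 type IV genes in each library (x axis: WT replicates 1 and 2, Itch KO replicates 1 and 2) in CPM per kilobase of principal transcript (y axis, from 0, own scale in each panel), with a panel for each head-to-head pair. Col4a1 and Col4a2 are higher in both knockouts, Col4a5 and Col4a6 are lower in both, and Col4a3 and Col4a4 overlap between the groups.

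Since both genes of the chromosome 8 pair were higher and both of the X pair lower, the sequences around their starts are shown, from RefSeq (GRCm38.p6), from 250 bases before to 50 bases after the annotated start. Col1a2, Col6a1 and Col17a1 are shown with them as members of the fibrillar, beaded filament and transmembrane classes. Capitals mark matches on either strand to 4 sets of letters, and overlapping matches run together. The CCAAT box was searched as CCAAT. The GC box was searched as GGGCGG. The AP-1 site was searched as TGANTCA and the TATA box as TATAAA. The windows of Col4a1 and Col4a2 share 78 bases (chr8:11312777-11312854), so the Col4a2 window below holds part of both. Each line reads 5′ to 3′ on the strand of its gene.
Col4a2, chr8:11312555-11312854, plus strand: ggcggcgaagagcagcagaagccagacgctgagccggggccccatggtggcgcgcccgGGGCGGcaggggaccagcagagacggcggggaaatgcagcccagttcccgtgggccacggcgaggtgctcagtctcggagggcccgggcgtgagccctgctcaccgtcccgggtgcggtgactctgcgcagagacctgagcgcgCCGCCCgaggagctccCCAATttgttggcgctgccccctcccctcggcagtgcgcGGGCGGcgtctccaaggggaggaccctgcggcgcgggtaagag
Col4a5, chrX:141475169-141475468, plus strand: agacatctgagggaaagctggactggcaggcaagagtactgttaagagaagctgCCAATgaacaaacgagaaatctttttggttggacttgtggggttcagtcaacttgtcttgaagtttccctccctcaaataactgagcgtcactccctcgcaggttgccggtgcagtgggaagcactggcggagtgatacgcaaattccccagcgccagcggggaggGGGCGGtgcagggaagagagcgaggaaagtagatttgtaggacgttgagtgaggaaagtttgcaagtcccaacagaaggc
Col4a6, chrX:141474027-141474326, minus strand: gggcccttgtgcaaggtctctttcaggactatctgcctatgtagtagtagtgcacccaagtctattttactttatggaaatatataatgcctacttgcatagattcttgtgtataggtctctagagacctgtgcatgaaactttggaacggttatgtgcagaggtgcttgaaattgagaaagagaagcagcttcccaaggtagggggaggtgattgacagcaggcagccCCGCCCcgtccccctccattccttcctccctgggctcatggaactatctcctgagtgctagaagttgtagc
Col1a2, chr6:4505368-4505667, plus strand: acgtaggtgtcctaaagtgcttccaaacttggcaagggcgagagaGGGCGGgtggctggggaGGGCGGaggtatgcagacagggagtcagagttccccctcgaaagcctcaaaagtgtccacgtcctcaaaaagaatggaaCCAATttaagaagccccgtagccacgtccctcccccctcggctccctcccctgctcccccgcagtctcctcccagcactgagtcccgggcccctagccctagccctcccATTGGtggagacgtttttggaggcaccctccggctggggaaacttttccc
Col6a1, chr10:76725995-76726294, minus strand: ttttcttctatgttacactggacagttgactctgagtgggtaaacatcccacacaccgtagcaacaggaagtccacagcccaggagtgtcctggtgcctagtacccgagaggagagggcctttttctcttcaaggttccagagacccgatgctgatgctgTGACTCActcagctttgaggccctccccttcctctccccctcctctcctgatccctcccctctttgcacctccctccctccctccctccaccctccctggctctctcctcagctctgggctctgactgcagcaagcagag
Col17a1, chr19:47691993-47692292, minus strand: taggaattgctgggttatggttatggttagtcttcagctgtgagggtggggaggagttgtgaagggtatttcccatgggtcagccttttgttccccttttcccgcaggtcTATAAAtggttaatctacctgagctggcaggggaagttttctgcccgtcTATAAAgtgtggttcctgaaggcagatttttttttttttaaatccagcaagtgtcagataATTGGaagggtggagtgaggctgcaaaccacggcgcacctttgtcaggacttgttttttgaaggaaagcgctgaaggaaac
GC boxes start 192 and 48 bases before and 7 bases after the start of Col4a2, 30 bases before that of Col4a5 and 21 bases before that of Col4a6. Col1a2 has GC boxes 205 and 188 bases before its start, and Col17a1 has none but has TATAAA 140 and 91 bases before its start. The AP-1 letters of Col6a1, 90 bases before its start, are the single such match in the 38 collagen windows searched.

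Windows were on file for 35 of the 44 members (38 windows). GGGCGG stood in 23 of the 38 (60.5%), beside 35.7% of all 32851 windows of the same length. CCAAT stood in 13 (34.2%, beside 37.4%), TATAAA in 5 (13.2%, beside 13.6%) and TGANTCA in 1 (2.63%, beside 7.81%). GGGCGG was present in the windows of the higher pair Col4a1 and Col4a2 and of the lower pair Col4a5 and Col4a6 alike. A match is a description of letters, not of a bound site.

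The other basement membrane zone genes gave smaller distances. Col7a1, the chain of the anchoring fibrils, was at 138.2 and 98.9 CPM (WT) and 181.1 and 221.3 CPM (Itch KO), a log2 fold change of 0.76 ± 0.23 (edgeR adjusted p = 0.176). Col18a1, a proteoglycan-like chain whose cleaved end is endostatin, was at 131 and 200.7 CPM in WT compared with 254 and 241.7 CPM in the knockouts (0.58 ± 0.25). Both had each knockout above each WT library. Col15a1, a related chain of vessel and muscle basement membranes, was at 111.1 and 95.5 CPM in WT, against 99.4 and 113.5 CPM in the knockouts, so that its groups overlap.

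Col17a1, the transmembrane collagen of hemidesmosomes, was the most abundant collagen per kilobase in both WT libraries and was lower in both knockouts. The gene (ENSMUSG00000025064, chr19:47646344-47692094, minus strand, GRCm38) was at 1795 and 954.6 CPM in the WT libraries and 683 and 597 CPM in the Itch KO libraries. Its log2 fold change was -1.10 ± 0.36 (edgeR adjusted p = 0.187, DESeq2 adjusted p = 0.0298). The fold moved with the WT library, to -0.58 without WT replicate 1 and to -1.48 without WT replicate 2. Set against Col7a1, to whose layer it is tied, Col17a1 was 21.9 and 16.3 times as high per kilobase in WT and 6.37 and 4.56 times as high in the knockouts.

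The remaining transmembrane genes did not share that pattern, and the class median of 0.46 rested on genes at low levels (0.06 without WT replicate 2). Col23a1 was at 105.9 and 48.4 CPM (WT) and 79.6 and 58.7 CPM (Itch KO), within the WT range. Col13a1, a chain of cell junctions, was at 3.13 and 1.77 CPM in WT compared with 4.16 and 6.17 CPM in the knockouts. Col25a1 was at 0.0666 and 0.630 CPM in WT, against 0.757 and 1.08 CPM in the knockouts. Its WT replicate 1 was under the level that 3 counts give (0.200 CPM), and it met the read filter only with the help of the knockouts. For the last 2 genes both knockouts lay above both WT libraries, with unadjusted p of 0.0782 for Col13a1 and 0.211 for Col25a1 by edgeR's test across all genes.

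Among fibril-associated chains, those that coat type I fibres were higher in the knockouts. Col12a1 was at 32.4 and 87.4 CPM in the WT libraries and 248.9 and 389.1 CPM in the Itch KO libraries, a log2 fold change of 2.41 ± 0.57. Col14a1, a chain of the same architecture, was at 38.4 and 49.1 CPM (WT) and 216.3 and 159 CPM (Itch KO), 2.10 ± 0.24 (edgeR adjusted p = 0.0624). Both genes lay outside the WT range in each knockout. Without WT replicate 1 the log2 fold change was 1.86 for Col12a1 and 1.93 for Col14a1. Without WT replicate 2 it was 3.31 and 2.295. Col16a1, a chain found near the dermal-epidermal border, was at 119.8 and 164.6 CPM in WT compared with 194.2 and 270.9 CPM in the knockouts (0.71 ± 0.26).

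The class held genes in the other direction too. Col20a1 was at 6.59 and 4.04 CPM in WT, against 3.03 and 2.80 CPM in the knockouts, and Col9a3, a cartilage chain, overlapped between the groups at 2.02 to 4.67 CPM. Of the exon bases of Col9a3, 6.07% are shared with Tcfl5 on the opposite strand. The class median of 0.71 was over 5 tested genes, and it was -0.30 with no filter on low counts and -0.18 without Itch KO replicate 2. Col9a1, Col9a2, Col19a1 and Col22a1 were not tested, at no more than 13 counts in any library.

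Short-chain and unclassed members were mostly low. Col8a2, a network chain, was at 32.6 and 15.5 CPM in the WT libraries and 7.89 and 9.61 CPM in the Itch KO libraries, a log2 fold change of -1.46 ± 0.44. Its partner Col8a1 was at 5.93 and 4.79 CPM (WT) and 8.71 and 15.2 CPM (Itch KO), 1.15 ± 0.39, so the type VIII genes lay on opposite sides. Col28a1 was at 4.26 and 5.17 CPM in WT compared with 1.89 and 3.18 CPM in the knockouts. Col10a1 and Col26a1 stayed at or under 2.02 CPM in all libraries and overlapped between the groups.

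With the fibrillar genes higher and Col17a1 lower, the make-up of collagen mRNA differed between the groups. Fibrillar genes took 26.8% and 48.8% of the family's reads in WT, against 74.3% and 72.2% in the knockouts. The transmembrane class, nearly all Col17a1, took 42.5% and 18.8% in WT and 4.62% and 4.21% in the knockouts. Basement membrane genes took 18.8% and 15.8% in WT and 7.86% and 8.91% in the knockouts, although their summed level was higher there (1306 and 1402 CPM) than in WT (840.3 and 845.8 CPM). The beaded filament share stayed between 6.50% and 10.2% in all 4 libraries.

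By single gene, per kilobase of principal transcript, Col17a1 led in WT at 327.8 and 174.3 CPM per kb, followed by Col3a1 at 99.3 and 168.2, and in WT replicate 2 those levels lie close together. In the knockouts Col3a1 led at 927.9 and 786.4 CPM per kb, ahead of Col1a2 at 569.8 and 579.9 and Col1a1 at 476.7 and 486.5. The order of the type I genes depends on the length used: Col1a1 was 0.837 and 0.839 times Col1a2 in the knockouts by principal transcript and 1.76 times in both by the union of annotated exons. The Col1a1 to Col1a2 ratio was higher in the knockouts than in WT (0.590 and 0.717 by principal transcript), an order that the choice of length cannot change.

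**Figure D4:**
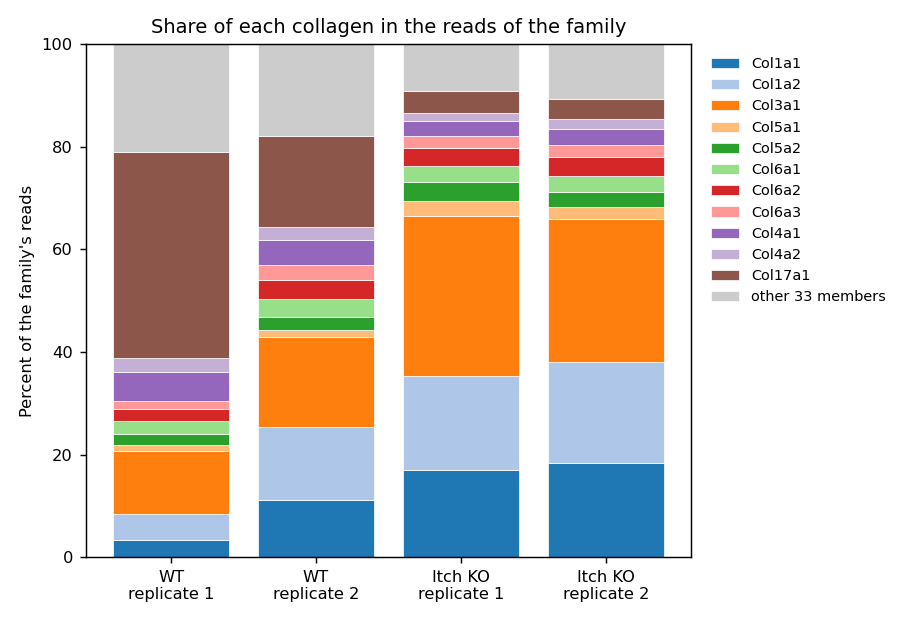
Share of named collagen genes in the reads of the family (y axis, percent) in each of the 4 libraries (x axis), with the other 33 members in grey. Col17a1 takes 40.1% and 17.9% of the family's reads in the WT libraries and 4.11% and 3.80% in the knockouts, where Col1a1, Col1a2 and Col3a1 together take the greater part.

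The WT libraries placed some members differently, which sets the error of the comparison. For Col1a1, Col1a2, Col3a1, Col5a1, Col5a2, Col6a1, Col6a2 and Col6a3, WT replicate 2 lay nearer to the knockouts than WT replicate 1 did. In the case of Col6a3 the knockout mean was 5.64 times WT replicate 1 and 2.45 times WT replicate 2. For Col17a1 the knockout mean was 0.356 times WT replicate 1 and 0.671 times WT replicate 2. Col4a1 gave nearly the same ratio against either, 1.94 and 1.84. Col11a1 lay on opposite sides of them, at 12.4 times WT replicate 1 and 0.669 times WT replicate 2.

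**Figure D5:**
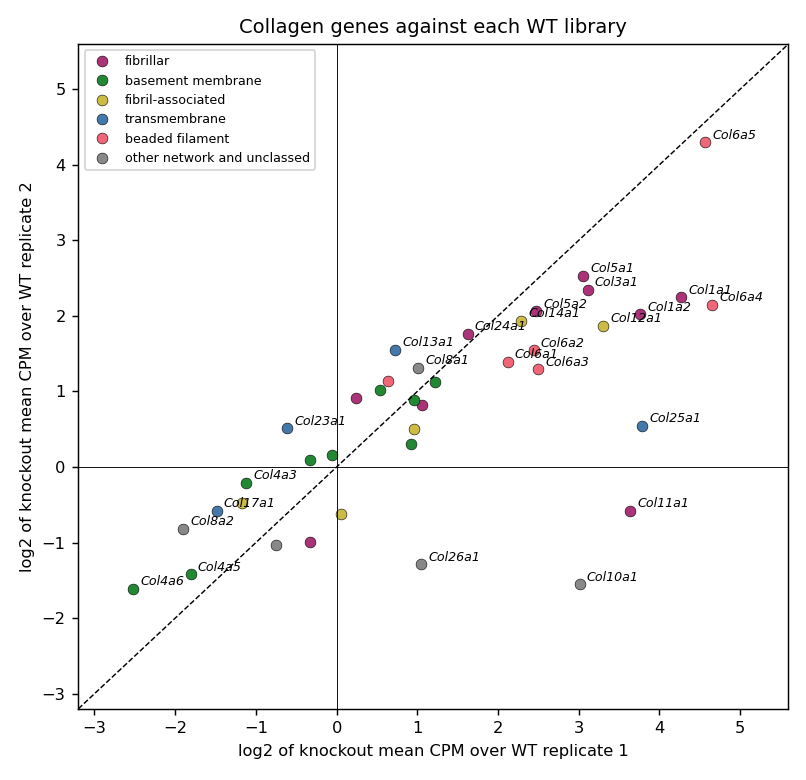
Each tested collagen gene by log2 of the mean knockout CPM over WT replicate 1 (x axis) and over WT replicate 2 (y axis), coloured by class, with equal values on the dashed line. The 2 axes share the knockout libraries. Type I genes, Col12a1 and the beaded filament genes Col6a1, Col6a2 and Col6a3 lie above 0 on both axes and below the line, while Col4a5, Col4a6 and Col17a1 lie below 0 on both. Col11a1, Col10a1, Col26a1, Col23a1, Col9a3, Col15a1 and Col4a4 have opposite signs on the axes.

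Fibroblast and macrophage markers differed between the groups as well, while the summed basal keratinocyte markers overlapped. Fibroblast markers (8 genes, led by Dcn) summed to 1482 and 1278 CPM in WT, against 3619 and 2809 CPM in the knockouts. Both knockouts lay above both WT libraries for 8 of 8, beside 31.2% of all tested genes. The log2 fold changes of the fibroblast markers had a median of 1.71, beside 1.97 for fibrillar collagens. Basal keratinocyte markers (6 genes), the cells that make Col17a1, summed to 7885 and 6856 CPM in the WT libraries and 7187 and 7795 CPM in the Itch KO libraries, and Krt5 stood between 2842 and 2932 CPM in all 4 libraries. Krt15 was at 2247 and 1321 CPM (WT) and 581.8 and 624.6 CPM (Itch KO), while Krt14 was at 1615 and 1886 CPM in WT compared with 2976 and 3471 CPM in the knockouts. Macrophage markers (6 genes, led by C1qa) summed to 184.3 and 192.6 CPM in WT, against 1504 and 1416 CPM in the knockouts. Of these, 6 of 6 were higher in both knockouts, beside the same 31.2%. No marker of these lists was at 0 in all libraries, and the part of each cell type in the collagen values was not tested.

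Markers of other cell types gave smaller or less even differences. Adipocyte markers, led by Cfd, summed to 4115 and 2235 CPM in the WT libraries and 2886 and 2981 CPM in the Itch KO libraries. Endothelial markers, led by Pecam1, summed to 312 and 140.9 CPM (WT) and 384.4 and 316.7 CPM (Itch KO), and pericyte and smooth muscle markers, led by Acta2, to 419.2 and 398.7 CPM in WT compared with 579.7 and 610.1 CPM in the knockouts. Schwann cell markers, led by Mbp, summed to 397.9 CPM in WT replicate 1, 123.3 in WT replicate 2 and 85.6 and 101.6 in the knockouts. Cartilage markers summed to 53.5, 118.8, 70.6 and 108.8 CPM in the same order, mostly Sox9, and Acan, which marks cartilage, was at 0.133 CPM in WT replicate 1 and at 7.25, 2.65 and 6.43 in the other libraries, the same order as Col11a1.

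Genes that fold, modify and trim collagen chains were mostly higher as well. Of 26 tested genes of synthesis and processing, 15 were higher (12% of all tested genes were) and 1 was lower (10.9% were) by an edgeR p under 0.05 without adjustment. Both knockouts lay above both WT libraries for 21 of the 26, beside 31.2% of all tested genes, and the median log2 fold change was 0.82. P4ha3 is among the 15 and the 21, and Adamts3 among the 21. Each was at 0.466 CPM in WT replicate 1 and met the read filter only with the help of the knockouts. Adamts2, the proteinase that removes the amino end of fibrillar procollagens, was at 46.9 and 52.9 CPM in WT, against 346.9 and 255.6 CPM in the knockouts, a log2 fold change of 2.59 ± 0.22 (edgeR adjusted p = 0.0548). Pcolce, which enhances removal of the other end, was at 54.8 and 68.2 CPM in the WT libraries and 190.1 and 207.8 CPM in the Itch KO libraries (1.69 ± 0.18). The collagen chaperone Fkbp10 was at 13.1 and 20.6 CPM (WT) and 83.8 and 83.1 CPM (Itch KO), and the proline hydroxylase P3h1 at 12.9 and 19.2 CPM in WT compared with 53.9 and 63.0 CPM in the knockouts. Serpinh1, the chaperone HSP47, was at 171.8 and 226.6 CPM in WT, against 423.3 and 565.5 CPM in the knockouts (1.31 ± 0.25), and P4hb, a subunit of prolyl 4-hydroxylase with many other clients, was at 458.8 and 610.2 CPM in the WT libraries and 916.6 and 929.8 CPM in the Itch KO libraries (0.79 ± 0.22). The gene with an unadjusted p under 0.05 in the lower direction was P3h2, another proline hydroxylase, at 37.4 and 17.2 CPM (WT) and 10.3 and 9.42 CPM (Itch KO).

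Receptors and fibre partners showed a similar mix. Of 9 tested receptor and uptake genes, 5 were higher, beside 12% of all tested genes, and Ddr1 alone was lower, beside 10.9%, at the same unadjusted threshold, with a median log2 fold change of 0.80. Mrc2, an uptake receptor for collagen fragments, was at 20.4 and 32.4 CPM in WT compared with 97.8 and 94.4 CPM in the knockouts, and Itga11, a fibroblast integrin chain for fibrillar collagen, at 6.13 and 5.61 CPM in WT, against 34.4 and 21.1 CPM in the knockouts. The shared integrin chain Itgb1 was at 276.4 and 255.1 CPM in the WT libraries and 495.2 and 433 CPM in the Itch KO libraries, and Lair1, an inhibitory collagen receptor of leukocytes, at 0.866 and 1.58 CPM (WT) and 17.8 and 5.73 CPM (Itch KO). Of 9 small leucine-rich proteoglycans, which bind fibrils and tune their width, 5 were higher and 0 were lower by edgeR at that threshold, against the same 12% and 10.9%, with a median of 1.05. Lum was at 160.8 and 199.9 CPM in WT compared with 841.4 and 541.7 CPM in the knockouts, and Dcn at 619.3 and 579 CPM in WT, against 1370 and 1101 CPM in the knockouts. Lum and Dcn also stand among the fibroblast markers. Aspn was at 44.3 and 29.4 CPM in the WT libraries and 184 and 117.2 CPM in the Itch KO libraries, and Prelp at 48.1 and 35.8 CPM (WT) and 88.3 and 113.9 CPM (Itch KO).

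The 8 partners that hold the epidermis to its basement membrane together with Col17a1 and Col7a1 had a median log2 fold change of -0.15. Dst, whose epithelial form sits at the inner face of the hemidesmosome, was at 753.6 and 416.4 CPM in WT, against 279.6 and 264.9 CPM in the knockouts, a log2 fold change of -1.10 ± 0.33 that matches that of Col17a1 in size. Plec, the other inner plaque protein, was at 551.4 and 328.8 CPM in the WT libraries and 274.3 and 308.6 CPM in the Itch KO libraries. Itgb4, the integrin chain that spans the membrane beside Col17a1, was at 224.6 and 149 CPM (WT) and 153.2 and 144.4 CPM (Itch KO), so that its groups overlap. Dst and Plec are also expressed in muscle, whose markers were highest in WT replicate 1, and the part of muscle in these 2 values was not tested.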

How the data were processed

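RNA of WT skin (2 libraries) and lesional Itch KO skin (2 libraries) was measured by sequencing. The authors deposited raw read counts per Ensembl gene, 1 file per library. The build was mm10 (GRCm38) and the tools HTSeq 0.6.1, SAMtools 0.1.19, CASAVA 1.8.2 and TopHat2, per the submitters' processing notes. The annotation release was not given in the sources used here, nor was the strand setting, so genes that overlap on opposite strands are uncertain. Of 39179 identifiers, 37607 had a GENCODE vM21 symbol. Special counter lines stayed out of library sizes. Reads without a feature made up 5.68% to 7.45% of counted reads.

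The tests ran in edgeR 4.0.16 (R 4.3.3) after filterByExpr (minimum count 10, 16651 genes) and TMM scaling. Groups were compared with the robust quasi-likelihood F test in its legacy form, two-sided, and p-values were adjusted by Benjamini-Hochberg over all tested genes. The biological coefficient of variation was 0.341. Log2 fold changes are knockout over WT, with SE as the fold change divided by the square root of F. CPM uses TMM-scaled library sizes. The level of 3 counts is 0.189 to 0.200 CPM. Libraries of a group differed by more than sampling noise (chi-square per degree of freedom 109 in WT and 23.5 in the knockouts). DESeq2 1.42.0, limma 3.58.1 (voom), other scalings and filters, the replicate block and leaving out each library were alternatives. The procedure was also run on simulated data. Their spread was smaller than in these libraries and equal in both groups, so that run does not measure error here. The members and lists were chosen with earlier results of these data known. Values are given for every tested member. From each partner list the 4 tested genes with the smallest p were named, plus Serpinh1, P4hb, Dcn and Itgb4. From each cell marker list the tested gene with the highest mean CPM was named. Itch, Xist and Y-linked genes served as checks. P3h2, P4ha3, Adamts3, Ddr1, Krt14, Krt15 and Acan were named after their values were seen. The result of 1 partner gene is left out.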

Additional observations from a re-analysis of the deposited data

How the results depend on the processing

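Direction was stable under scaling and test, while the number of calls was not. The 39 tested members kept their direction under RLE scaling, DESeq2, edgeR with legacy=FALSE, no filter and the replicate block. They also kept it under scaling without the listed muscle and hair shaft markers. So did the 37 left without X and Y genes, and under limma-voom 38 did, the exception being Col10a1 (0.28). The number past an adjusted p of 0.05, 0 in edgeR, was 19 in DESeq2, 8 with no filter on low counts (where 24574 genes were tested) and 0 to 22 when each library was left out. With no filter, 420 of all 24574 tested genes passed that threshold as higher and 68 as lower. With the replicate block the number of members past it was 0 and the fibrillar median was 1.97, so the block changed no call among the members. The labels do not say that the replicate numbers pair libraries (correlation of same-numbered deviations 0.186 across genes), so the numbers are only names.

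Leaving out each library gave 24 to 27 members with the knockouts above WT and 9 to 11 with the knockouts below. Groups separate more easily with a library fewer, for any gene. The share of all tested genes was not taken in those fits, so these counts do not measure stability. It gave class medians of 1.804 to 2.77 (fibrillar), -0.058 to 0.153 (basement membrane), -0.18 to 0.96 (fibril-associated) and 0.06 to 0.52 (transmembrane), and a difference in the family's share of gene reads of 1.04 to 1.16 percentage points. The basement membrane median was 0.58 without X and Y genes, and the fibril-associated median -0.30 with no filter. Sign depended on the library left out for Col10a1 (-1.69 to 2.88), Col11a1 (-0.58 to 3.63), Col15a1 (-0.058 to 0.153), Col23a1 (-0.61 to 0.51), Col26a1 (-2.23 to 1.04), Col4a4 (-0.40 to 0.085), Col9a3 (-0.91 to 0.089) and for the difference in the share of Col6a2, which was -0.12 to 1.19 percentage points, the lowest without WT replicate 1. The fit without X and Y genes leaves out Col4a5 and Col4a6, and the one without a filter adds low genes; otherwise the cause was not tested. Depth limits Col6a4, Col6a5, Col10a1, Col25a1 and Col26a1, which reach under 1 CPM, and the 5 untested members.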
